A study of Mus musculus with 27 samples.

Results

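The transcripts described here are 9 genes that mark the arterial or the venous side of the vascular endothelium. They were named by symbol, with earlier results of these data known. Arterial genes were Gkn3, Efnb2, Bmx, Gja4, Gja5, Hey1 and Sema3g, and venous genes were Nr2f2 and Ephb4. All 9 were among the 40129 genes of the table and all 9 were among the 27137 genes tested, those whose mean reached 1 normalized read. RNA was sequenced from retinas of wild-type (WT) C57BL/6 pups (C57BL/6J in the methods of the study) of the oxygen-induced retinopathy (OIR) model, in which pups breathe high oxygen during the second week of life and are then returned to room air, so that the central retina loses its vessels and becomes ischemic. Controls (nOIR) stayed in room air. Groups were nOIR p14 (14 days of age, 6 mice used), OIR p14 (6 mice), nOIR p17 (17 days of age, 6 mice) and OIR p17 (8 mice), which gave 26 mice, with p14 being the ischemic phase and p17 the phase of retinal neovascularization (RNV). A library held RNA of the whole retina of a single pup, from one eye or from both eyes pooled, without sorting of cells. Pups of both sexes were used, animals came from few litters, and OIR pups outside a set range of body weight had not been kept by the study. Litter and sex of a library were not known here. The p-values measure the spread between these mice, taken as independent. They may be too small if mice of a litter are alike, which was not tested.

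Arteries and veins differ in the genes of their endothelial cells before and after flow begins. On the arterial side, vascular endothelial growth factor and Notch signalling switch on transcription factors such as Hey1, the membrane-bound ligand ephrin-B2 (Efnb2) and the gap junction proteins connexin 37 (Gja4) and connexin 40 (Gja5). On the venous side, the nuclear receptor COUP-TFII (Nr2f2) restrains Notch signalling, and EphB4 (Ephb4) is the receptor that binds ephrin-B2, so that ligand and receptor keep the vessel types apart. The kinase Bmx, the secreted semaphorin Sema3g and gastrokine 3 (Gkn3) are known as markers of arterial or arteriolar endothelium. Several of these genes are not limited to vessels: Efnb2, Hey1 and Nr2f2 are also used by neurons and glia of the retina, and Gja4 by vascular smooth muscle. In whole-retina RNA, fewer cells of a type and less RNA per cell cannot be told apart.

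Library depth, reconstructed as whole reads from the deposited values, was 24641221 to 33593428 reads in 25 of the mice and 17029536 reads in OIR p17 mouse S1. The 24 pan-endothelial markers (such as Pecam1 and Cdh5) were all measured in every group. Their mean level per mouse, on the scale of log2(normalized reads + 1), was 8.39 to 8.61 in nOIR p14, 8.11 to 8.87 in OIR p14, 8.22 to 8.42 in nOIR p17 and 9.32 to 9.81 in OIR p17, so OIR p17 mice lay above every other mouse. Mouse S4 of nOIR p14 was left out, as in the study, for lens tissue. Its level of the lens gene Cryaa was 6142 normalized reads, and the mice kept ranged from 0 to 12404. Its values fell outside those of the other nOIR p14 mice for Gkn3 (7.93 normalized reads), Gja5 (69.4), Hey1 (518), Nr2f2 (180.5) and Ephb4 (300.4), and the number of members called was the same with it in each comparison.

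In ischemic retinas at p14, the arteriolar marker Gkn3 fell to 0 reads in every mouse and connexin 37 (Gja4) rose by 0.72 ± 0.16 on the log2 scale (limma, ± SE). The other 7 members did not pass the threshold, set at 0.05 for p-values adjusted over every tested gene. Thus, 1 member was called higher and 1 lower, where 3.18% of all tested genes were called higher and 2.91% lower. The ranges of OIR and nOIR mice were apart for 1 member, Gkn3, and for 3.77% of tested genes. At p17, Gja4 and the venous receptor Ephb4 rose and Gkn3 fell, which gave 2 members called higher (7.39% of tested genes) and 1 called lower (5.12%). At p17 the ranges of OIR and nOIR mice did not overlap for 3 members (5.87% of tested genes). Over the 9 members, log2 fold changes had a median of -0.26 at p14 and of 0.15 at p17, beside 0.02 and -0.02 over all tested genes; with Gkn3 at its bound instead of its fitted value, the p14 median is the same.

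**Figure D1:**
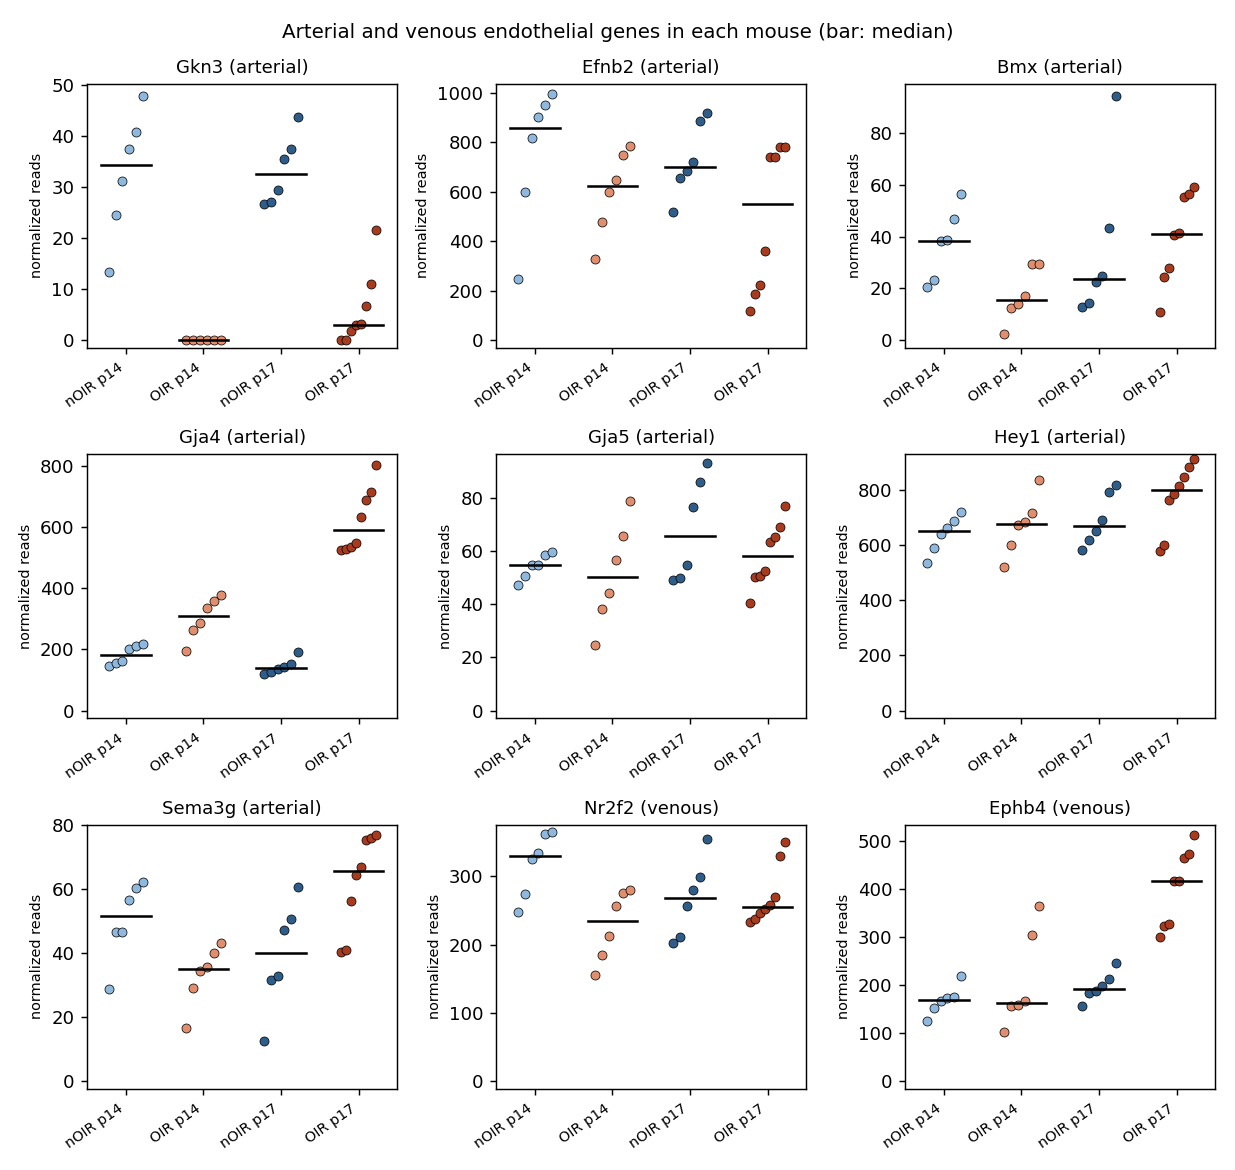
Normalized reads (y axis, each panel with its own scale from 0) of the 9 genes in each of the 26 mice used, by group (x axis). Points are mice and bars are group medians; Gkn3 is at 0 in all 6 OIR p14 mice, and Gja4 in the 8 OIR p17 mice lies between 524 and 803, above every mouse of the other groups.

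Gkn3 encodes a secreted protein of the gastrokine family and is used as a marker of arteriolar endothelium in the central nervous system. In nOIR p14 its level was 13.3 to 47.8 normalized reads with a median of 34.3, and in nOIR p17 it was 26.6 to 43.6 with a median of 32.5. In OIR p14 it was 0 in 6 of 6 mice. In OIR p17 it was 0 in 2 of 8 mice and 1.82, 2.88, 3.11, 6.61, 10.9 and 21.5 in the others, the highest being mouse S8. No OIR mouse reached the lowest nOIR mouse of its own age, and the highest OIR p17 mouse overlapped with the range of nOIR p14. The 6 nOIR p14 libraries held 200 reads of Gkn3 and the 6 OIR p14 libraries held 0 of 167045737 reads. A count of 0 allows up to 3 reads per library, or 2.47 to 3.41 normalized reads (mean 2.99), so the mean level was at least 10.9-fold lower in OIR p14 than in nOIR p14. This bound covers counting error only, as copies from PCR were not removed. The limma adjusted p was 3.84e-07 at p14. At p17, the level fell by 3.02 ± 0.51 on the log2 scale (limma adjusted p = 6.80e-05). Between OIR p14 and OIR p17 it rose by 2.06 ± 0.51 (limma adjusted p = 0.0113). That value was set against a group at 0 and depends on the pseudocount, and the adjusted p was 0.0733 with a pseudocount of 5 and 0.0828 in a fit of these groups alone. Within groups, Gkn3 had a Pearson r of -0.48 with the length index of the library (described with Efnb2 further on), and mouse S8, the highest of OIR p17, had the lowest index (-0.57); with the index in the fit, the p17 value was -3.23 ± 0.47 (limma adjusted p = 8.43e-06). The order of the groups was therefore nOIR p17 and nOIR p14, which differed by 0.11 ± 0.54 (limma adjusted p = 0.99), then OIR p17, then OIR p14.

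Gja4 encodes connexin 37, which joins endothelial cells of arteries, and cells of the arterial wall, by gap junctions. Its level was 147 to 217 normalized reads in nOIR p14 (median 181), 194 to 378 in OIR p14 (median 310.3), 118 to 190.2 in nOIR p17 (median 139) and 524 to 803 in OIR p17 (median 589). At p14 OIR mouse S2 (194) lay within the nOIR range and the other 5 OIR mice lay above it, whereas at p17 all 8 OIR mice lay above all nOIR mice. Gja4 rose 1.64-fold at p14 (log2 fold change 0.72 ± 0.16, limma adjusted p = 0.00443) and 4.28-fold at p17 (log2 fold change 2.10 ± 0.15, limma adjusted p = 1.62e-11). It was 2.07-fold higher in OIR p17 than in OIR p14 (log2 fold change 1.05 ± 0.15, limma adjusted p = 2.39e-05), again without overlap. The OIR effect was larger at p17 than at p14 by 1.38 ± 0.22 on the log2 scale (limma adjusted p = 0.000272). Gja4 was the member called in this comparison of effects, where 1.43% of tested genes were called higher at p17. The order was OIR p17, OIR p14, nOIR p14 and nOIR p17, in which the nOIR groups did not pass the test (log2 difference -0.33 ± 0.16, limma adjusted p = 0.67).

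Gja5 encodes connexin 40, the other connexin of arterial endothelium. Its level was 47.1 to 59.6 normalized reads in nOIR p14, 24.7 to 79.1 in OIR p14, 49.2 to 93.1 in nOIR p17 and 40.4 to 76.9 in OIR p17, with medians of 54.9, 50.5, 65.7 and 58.1. All groups overlapped. The log2 difference between OIR and nOIR was -0.17 ± 0.24 at p14 (limma adjusted p = 0.82) and -0.20 ± 0.23 at p17 (limma adjusted p = 0.69). The arterial connexins were also set against each other within a mouse. The difference of Gja4 minus Gja5 on the log2 scale was 1.37 to 2.07 in nOIR p14, 2.24 to 2.93 in OIR p14, 0.71 to 1.44 in nOIR p17 and 3.17 to 3.66 in OIR p17, and the ranges of OIR and nOIR mice did not overlap at either age. At p17 the ranges of Gja4 alone were already apart. How often Gja4 minus another gene parts the groups was not counted. This difference is given as a description without a test, and its absolute value also holds the unequal transcript lengths of these genes, so that only its shift between groups is read.

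**Figure D2:**
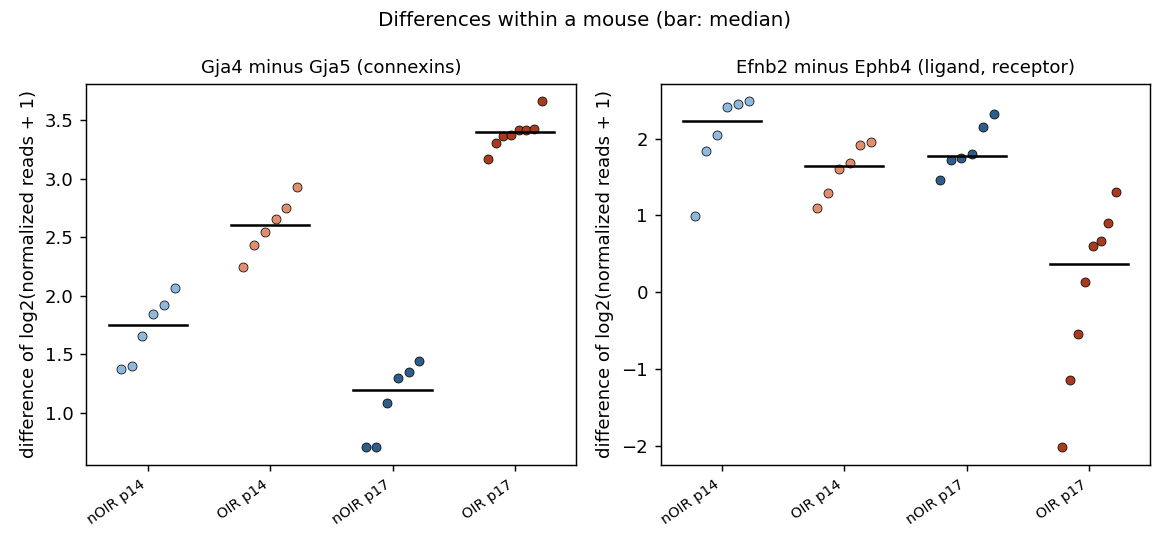
Differences between pairs of genes within each of the 26 mice (y axis, difference of log2(normalized reads + 1)) by group (x axis), with bars at the group medians. The left panel shows Gja4 minus Gja5, where all OIR p17 mice lie between 3.17 and 3.66 and all nOIR p17 mice between 0.71 and 1.44; the right panel shows Efnb2 minus Ephb4, which spreads from -2.02 to 1.30 in OIR p17.

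Of the other connexins fixed as a list, 9 of 10 were tested. At p14, 0 were called higher and 1 lower, namely Gjd2, the connexin of neuronal electrical synapses (log2 fold change -0.52), whose limma adjusted p was 0.0540 in a fit of these groups alone. At p17, 2 were called higher and 2 lower: Gja1 (connexin 43 of astrocytes and mural cells, 1.32) and Gjc1 (connexin 45, 0.51) rose, and Gjd2 (-0.54) and Gja10 (connexin of horizontal cells, -0.60) fell. The call of Gja10 was lost without nOIR p17 mouse S4, S5 or S6 or OIR p17 mouse S3, each left out in turn (limma adjusted p = 0.0519 to 0.0612).

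Efnb2 encodes ephrin-B2, the arterial ligand. Its level was 248 to 993 normalized reads in nOIR p14 (median 859), 327 to 783 in OIR p14 (median 624), 518 to 917 in nOIR p17 (median 701) and 115 to 781 in OIR p17 (median 549). In OIR p17 the spread was wide, with 739 to 781 in mice S1, S2, S3 and S5, and with 358 in S4, 222 in S6, 187 in S7 and 115 in S8. At p14, the log2 fold change came to -0.26 ± 0.40 (limma adjusted p = 0.84), and at p17 to -0.86 ± 0.37 (limma adjusted p = 0.14). No difference between OIR and nOIR therefore passed the test at either age. With each mouse left out in turn, the p14 value ran from -0.55 to -0.096. Within groups, Efnb2 was set beside a measure of each library that was computed from its expression values. A cause was not tested. A length index was computed for each mouse as the median log2 deviation of genes with long transcripts (at least 5000 bases) minus that of genes with short transcripts (under 2000 bases). Across the 26 mice, the deviations of Efnb2 and of the length index from their group means had a Pearson r of 0.55, and 0.33 without the 2 mice farthest from the median index. The median transcript of Efnb2 (2722.5 bases) is in neither length class. For the members with longer transcripts, r was 0.44 in Ephb4 (4040 bases), -0.02 in Gja5 (3109) and -0.03 in Sema3g (4540). OIR p17 mice held both the highest index (S1, 0.43) and the lowest (S8, -0.57). With the index in the fit, the log2 fold change of Efnb2 at p17 was -0.66 ± 0.32, and without S1 and S8 it was -0.73 ± 0.34, with limma adjusted p-values of 0.18 and 0.19.

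**Figure D3:**
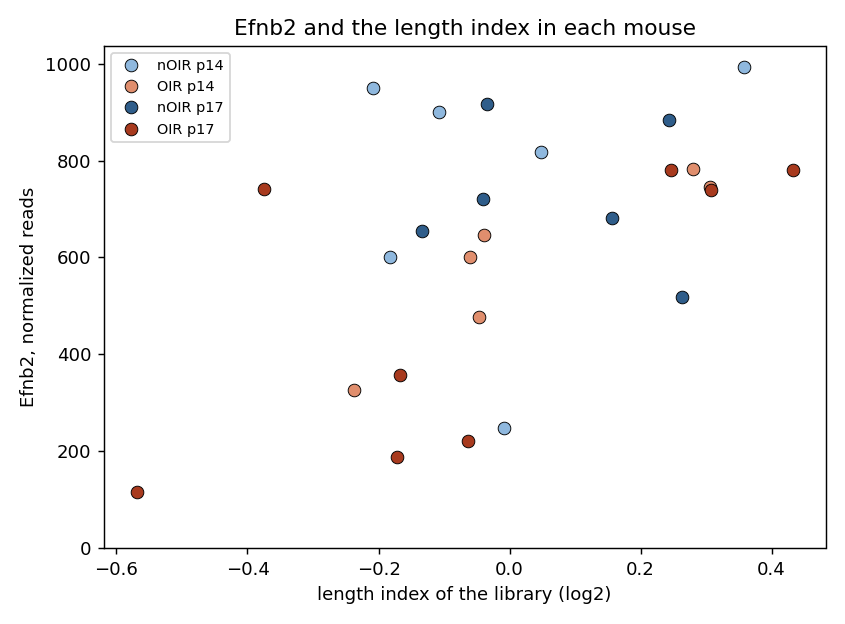
Efnb2 in normalized reads (y axis, from 0) against the length index of the library (x axis, log2) for the 26 mice, coloured by group. Mouse S8 of OIR p17, at an index of -0.57, has the lowest Efnb2 with 115 normalized reads, and OIR p17 mice S1, S2 and S5 at positive indices have 739 to 781. Mouse S3 of OIR p17, with the next lowest index (-0.37), has 741 normalized reads and lies apart from this pattern. Mouse S6 of nOIR p14 (index -0.008) has 248 and mouse S6 of OIR p17 (index -0.064) has 222, and these also lie apart from it.

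Ephb4 encodes the venous receptor of ephrin-B2. Its level was 124 to 218 normalized reads in nOIR p14 (median 169.7), 101 to 365 in OIR p14 (median 162), 156 to 246 in nOIR p17 (median 192) and 301 to 513 in OIR p17 (median 416). At p17 every OIR mouse lay above every nOIR mouse, and Ephb4 was 2.03-fold higher in OIR (log2 fold change 1.02 ± 0.21, limma adjusted p = 0.000645). At p14 the log2 fold change was 0.19 ± 0.22 (limma adjusted p = 0.76), as 4 of 6 OIR mice lay between 101 and 166 and mice S4 (365) and S6 (305) lay above all nOIR mice. Those 2 mice had the highest length indices of their group (0.28 and 0.31), and the within-group r of Ephb4 with the index was 0.44 over 26 mice. OIR p17 exceeded OIR p14 by 1.06 ± 0.21 (limma adjusted p = 0.00111) and nOIR p14 by 1.25 ± 0.21 (limma adjusted p = 5.75e-05), and no difference among the other 3 groups passed the test. The OIR effect was larger at p17 by 0.83 ± 0.30, which did not pass the test (limma adjusted p = 0.24). Without OIR p14 mouse S4 that difference was 1.02 ± 0.27 (limma adjusted p = 0.0498). The difference of Efnb2 minus Ephb4 within a mouse, on the log2 scale, was 0.99 to 2.49 in nOIR p14, 1.10 to 1.95 in OIR p14, 1.47 to 2.31 in nOIR p17 and -2.02 to 1.30 in OIR p17. At p17 these ranges did not overlap, which is a description without a test and rests on genes that both vary with the length index. The ranges of Ephb4 alone were already apart at p17.

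Other B-class ephrins and Eph receptors that bind them were measured as a list of 7, of which 7 were tested. At p14, 0 passed in either direction. At p17, 0 were called higher and 2 were called lower, the neuronal receptors Ephb1 (log2 fold change -0.49, limma adjusted p = 0.0148) and Epha4 (-0.42, limma adjusted p = 0.0178), in contrast in sign to Ephb4. Without nOIR p17 mouse S6, the limma adjusted p of Ephb1 was 0.0503. With each mouse scaled to the same total, that of Epha4 was 0.0652.

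Nr2f2 encodes COUP-TFII, a venous transcription factor that amacrine cells of the retina also express. Its level was 247 to 365 normalized reads in nOIR p14 (median 330), 156 to 279 in OIR p14 (median 234), 203 to 354 in nOIR p17 (median 268) and 232 to 350 in OIR p17 (median 255). The ranges overlapped at both ages. At p14 the log2 fold change was -0.50 ± 0.16 with a limma adjusted p of 0.0631, just above the threshold, and the adjusted p lay between 0.0354 and 0.21 over the alternatives. It was 0.0421 without nOIR p14 mouse S6, 0.0420 without OIR p14 mouse S3 and 0.0445 without OIR p14 mouse S6. At p17 the log2 fold change was 0.04 ± 0.15 (limma adjusted p = 0.93). Markers of amacrine and horizontal cells were measured beside it: of 16 tested, 6 were called lower at p14 and 7 at p17, with 0 called higher at either age. Their summed level was 68394 to 78112 normalized reads in nOIR p14 and 54541 to 64585 in OIR p14, and 75657 to 81195 in nOIR p17 and 54115 to 66971 in OIR p17, with no marker at 0 in any group. Their part in the values of Nr2f2 was not tested. The other NR2F genes, Nr2f1 and Nr2f6, did not pass the test at either age, with log2 fold changes of -0.28 and -0.07 at p14 and -0.22 and -0.09 at p17.

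Hey1, a transcription factor switched on by Notch, had the smallest SE of the 9 members. Its level was 534 to 719 normalized reads in nOIR p14, 522 to 835 in OIR p14, 582 to 820 in nOIR p17 and 580 to 911 in OIR p17. OIR and nOIR mice differed by 0.06 ± 0.12 on the log2 scale at p14 (limma adjusted p = 0.88) and by 0.15 ± 0.12 at p17 (limma adjusted p = 0.50). Of 8 other genes of the Hes and Hey family and Nrarp, 0 were called at p14. At p17, 2 of them were called higher and 0 lower: Heyl, which is expressed by mural cells (log2 fold change 1.75, limma adjusted p = 5.47e-07), and Hey2, which is arterial (0.91, limma adjusted p = 8.31e-06). Heyl had 120 to 219 normalized reads in nOIR p17 and 397 to 764 in OIR p17, and Hey2 had 180 to 305 and 350 to 545, without overlap in either gene.

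Sema3g encodes a secreted class 3 semaphorin made by arterial endothelium. Its level was 28.9 to 62.1 normalized reads in nOIR p14, 16.5 to 43.3 in OIR p14, 12.5 to 60.6 in nOIR p17 and 40.5 to 76.9 in OIR p17. On the log2 scale, OIR differed from nOIR by -0.60 ± 0.31 at p14 (limma adjusted p = 0.32) and by 0.76 ± 0.29 at p17 (limma adjusted p = 0.0862), neither of which passed. Without nOIR p17 mouse S6, the p17 value was 0.91 ± 0.30 (limma adjusted p = 0.0446). With each mouse left out in turn, the p17 value ran from 0.47 to 0.91 (limma adjusted p up to 0.29). OIR p17 was above OIR p14 by 0.91 ± 0.29 with a limma adjusted p of 0.0585, and the adjusted p was 0.0448 with edgeR and 0.0119 with DESeq2 on the recovered reads. In limma it was 0.0215 without nOIR p17 mouse S3, 0.0497 without OIR p14 mouse S1, 0.0408 without OIR p17 mouse S5 and 0.0462 without OIR p17 mouse S6. Over all runs without 1 mouse, the difference between OIR ages ran from 0.728 to 0.996 (limma adjusted p up to 0.175). Among 13 class 3 semaphorins and their receptors, 1 was called higher and 1 lower at p14, and 3 were called higher and 4 lower at p17. Sema3b rose at both ages (log2 fold changes 0.86 and 1.04) and Sema3e fell at both (-0.54 and -0.74), and the receptors Nrp1 (1.08) and Plxnd1 (1.67) rose at p17.

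Bmx, a non-receptor tyrosine kinase of the Tec family found in arterial endothelium, had a low level with a wide spread. It had 20.4 to 56.5 normalized reads in nOIR p14, 2.15 to 29.6 in OIR p14, 12.7 to 94.6 in nOIR p17 and 10.9 to 59.1 in OIR p17. All groups compared overlapped. The difference of OIR from nOIR on the log2 scale was -1.29 ± 0.50 at p14 (limma adjusted p = 0.15) and 0.34 ± 0.47 at p17 (limma adjusted p = 0.74). With each mouse left out in turn, it ran from -1.50 to -0.84 at p14 and from 0.13 to 0.69 at p17. OIR p17 was above OIR p14 by 1.29 ± 0.47 (limma adjusted p = 0.11). Without OIR p17 mouse S2, the lowest of that group, this difference was 1.52 ± 0.45 (limma adjusted p = 0.0452). Over all runs without 1 mouse, it ran from 0.85 to 1.52 (limma adjusted p up to 0.31). Tec, the kinase that gave the family its name, was higher in OIR at p17 (log2 fold change 1.05, limma adjusted p = 0.00292) and at p14 had a log2 fold change of -0.08 (limma adjusted p = 0.94).

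**Figure D4:**
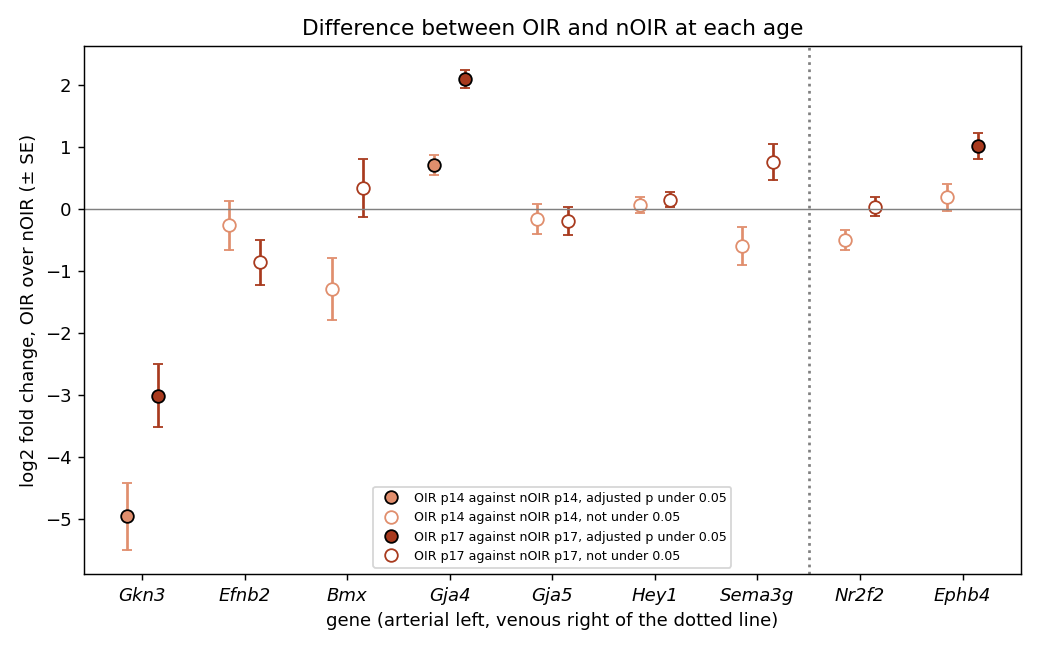
Log2 fold change between OIR and nOIR mice (y axis, bars ± SE of limma) for the 9 genes (x axis) at p14 and at p17, with filled points for an adjusted p under 0.05. Gkn3 is at -4.96 and -3.02, where the p14 value is a fit against mice that all had 0 reads and depends on the pseudocount, so that its size is no measured fold; Gja4 is at 0.72 and 2.10, and Ephb4 is filled at p17 alone (1.02).

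Between the control ages, no member was called: 0 of 9 passed, where 0.317% of tested genes were called in either direction. With an unadjusted p under 0.05, there was 1 by limma (Gja4), 0 by edgeR and 1 by DESeq2. The share of all tested genes at an unadjusted p is not given here, so these counts cannot be read against it. Within OIR mice, 3 members were higher at p17 than at p14 (Gkn3, Gja4 and Ephb4), where 4.11% of tested genes were called higher at p17, and 0 members were lower. The OIR mice of both ages were each used in more than a single comparison, so these counts are not independent.

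To show where the members stood relative to the endothelium as a whole, the mean log2 level of the 24 pan-endothelial markers was subtracted within each mouse. These differences are descriptions without a test. For Gja4 they were -1.34 to -0.67 in nOIR p14 and -0.50 to 0.18 in OIR p14, and -1.42 to -0.79 in nOIR p17 and -0.50 to -0.02 in OIR p17, so that Gja4 was higher relative to the markers in OIR at both ages, without overlap (as were 2.09% of tested genes at p14 and 0.693% at p17). For Ephb4 the differences overlapped at p17, with -0.92 to -0.38 in nOIR and -1.57 to -0.53 in OIR. Of the 6 members whose own level did not pass the test at p17, 4 had lower differences in every OIR p17 mouse than in every nOIR p17 mouse. The same held for 49.0% of all tested genes, as the subtracted mean itself was higher in OIR p17, so this is not a result about the members. Gja5 had -2.77 to -1.81 in nOIR p17 and -4.16 to -3.39 in OIR p17, Hey1 had 0.86 to 1.38 and -0.37 to 0.26, Nr2f2 had -0.60 to 0.05 and -1.66 to -1.18, and Efnb2 had 0.80 to 1.43 and -2.81 to 0.08. The differences overlapped for Bmx (-4.58 to -1.84 in nOIR p17 and -5.98 to -3.62 in OIR p17) and for Sema3g (-4.61 to -2.42 and -4.17 to -3.06). Gkn3 had -3.58 to -2.94 in nOIR p17 and -9.55 to -5.18 in OIR p17, where the lowest value is from a mouse with 0 reads and is set by the pseudocount.

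When the pan-endothelial mean was added to the fit as a covariate, 2 members (Gkn3 and Gja4) were called at p14, as without it, with fitted log2 fold changes of -4.95 and 0.80. At p17, 0 were called. The covariate of OIR p17 mice did not overlap with that of the other mice, so at p17 the covariate and the group cannot be told apart, and SEs grew (Gja4 0.96 ± 0.43, Gkn3 -3.12 ± 1.67, Ephb4 -0.21 ± 0.63).

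The wider endothelial lists were counted beside these values. Their names are those of the lists, and which cells of the unsorted retina gave the reads was not tested. Mean levels over mice were 8501 normalized reads for Alpl and 1614 for Ctsc, beside 789 for the pan-endothelial marker Pecam1. The counts are therefore not read as responses of arterial, venous or capillary endothelium alone. Of 22 other arterial endothelial genes, 21 were tested. At p14, 3 were called higher and 4 lower (median log2 fold change 0.18). Igfbp3, an insulin-like growth factor binding protein (2.79), and the netrin receptor Unc5b (0.81) rose, while Fbln5, an elastic fibre protein (-1.42), and alkaline phosphatase Alpl (-0.40) fell. At p17, 13 were called higher and 1 lower (median 1.07), with the matrix protein Mgp (2.76), the Notch ligand Dll4 (2.08), Unc5b (1.66) and the co-receptor Nrp1 (1.08) among those that rose. Dll4 had 57.8 to 98.9 normalized reads in nOIR p17 and 210.4 to 415 in OIR p17. Of 16 other venous endothelial genes, 1 was called higher and 2 lower at p14 (median 0.07): cathepsin C (Ctsc, 1.07) rose, and the adhesion molecule Vcam1 (-0.57) and the amino acid transporter Slc38a5 (-0.81) fell. The call of Slc38a5 (limma adjusted p = 0.0411) was lost without nOIR p14 mouse S1, S2, S3 or S5, or OIR p14 mouse S3, S4, S5 or S6, each left out in turn (adjusted p = 0.0505 to 0.12). At p17, 8 were called higher and 0 lower (median 1.14), among them Ctsc (1.54), the apelin receptor Aplnr (1.59), Vwf (1.78) and Icam1 (1.92). Of 12 capillary genes, 2 were called higher and 4 lower at p14, and 5 higher and 3 lower at p17.

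The 24 pan-endothelial markers had 3 called higher and 3 lower at p14 (median log2 fold change -0.06) and 20 higher and 1 lower at p17 (median 1.48), with Cd34 (2.09), Ecscr (2.36), Eng (1.95) and Tie1 (1.62) having the smallest adjusted p-values of the list at p17. Markers of smooth muscle and of pericytes were counted as well. Of 12 smooth muscle markers, 5 were called higher and 7 were not called at p14. At p17, 10 were called higher and 2 were not called, with 0 called lower at either age. Acta2, the smooth muscle actin, had 181 to 283 normalized reads in nOIR p14, 603 to 1177 in OIR p14, 99.1 to 312 in nOIR p17 and 1143 to 3174 in OIR p17. The summed smooth muscle level was 6159 to 7403 in nOIR p14, 5895 to 8363 in OIR p14, 5833 to 7666 in nOIR p17 and 9763 to 14818 in OIR p17, with no marker at 0 in any group and with Mylk as the most abundant (mean over mice 4241, log2 fold change 0.07 at p17, limma adjusted p = 0.80). Of 11 pericyte markers, 0 were called higher and 7 lower at p14, such as the potassium channel subunit Kcnj8 (-1.72) and Rgs5 (-1.10), and 7 were called higher and 2 lower at p17 (Rgs5, 1.84). The summed pericyte level was 25809 to 32265 in nOIR p14 and 17874 to 24450 in OIR p14, and 28797 to 38306 in nOIR p17 and 33488 to 48203 in OIR p17. These sums rest mostly on Vtn (mean over mice 21765 normalized reads), which fell at p14 (-0.47, limma adjusted p = 0.0141) and at p17 had a value of -0.14 (limma adjusted p = 0.50). Of 10 microglia and macrophage markers, 3 were called higher and 0 lower at p14, and 7 higher and 1 lower at p17, with summed levels of 2196 to 2861 and 2422 to 3557 at p14 and of 2148 to 2384 and 3046 to 5586 at p17 in nOIR and OIR mice. No pericyte, microglia or macrophage marker was at 0 in any group. The part of these cell types in the values of Gja4 and Ephb4 was not tested. Among 7 lens markers tested, 0 passed at p14 and 1 was called higher at p17 (Cryab, 0.86). The call of Cryab was lost without nOIR p17 mouse S1, S2, S4 or S6 or OIR p17 mouse S2, S3, S7 or S8, each left out in turn (limma adjusted p = 0.0544 to 0.12). Among 10 markers of retinal pigment epithelium and choroid, 1 was called higher at each age, Plvap (1.37 and 2.03), which also belongs to fenestrated endothelium.

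**Figure D5:**
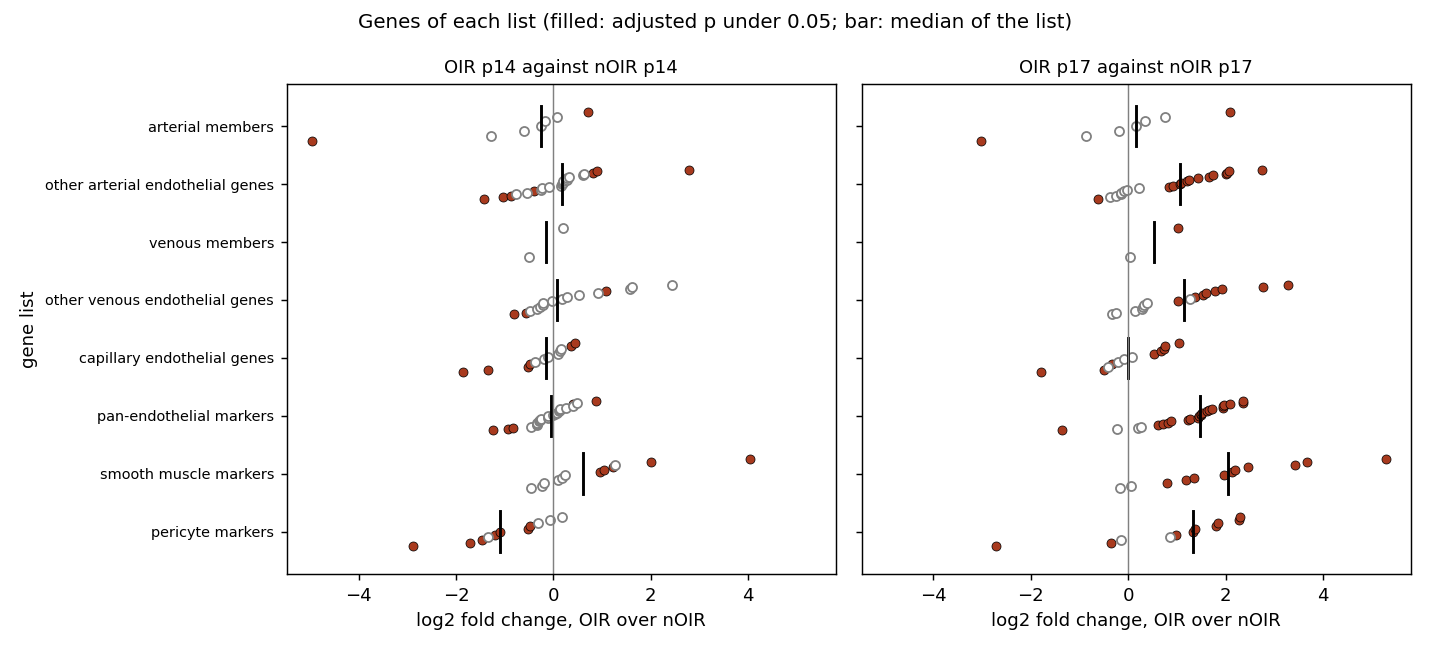
Log2 fold change between OIR and nOIR mice (x axis) of each tested gene in 8 lists (y axis), at p14 (left) and p17 (right); filled points have an adjusted p under 0.05 and bars are list medians. The median of the pan-endothelial markers is -0.06 at p14 and 1.48 at p17, and that of the pericyte markers is -1.10 and 1.32.

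The genes most alike to each member were taken by Pearson r of log2(normalized reads + 1) over the 26 mice, among 19004 genes whose mean reached 10 normalized reads. The mice share their 4 groups and library properties, so these values describe patterns and are not tests. Gja4 was closest to Mcam (r = 0.95), Arpc1b (0.95) and Cd248 (0.95), and Ephb4 to Ece1 (0.91), Olfml2a (0.90) and Fzd4 (0.88). Gkn3 was closest to Pkib (0.94), Cck (0.89) and Atp1b1 (0.89), and Efnb2 to Adgra3 (0.95), Btbd2 (0.93) and Rbm15b (0.93). The remaining members had lower values, with Nr2f2 closest to Pdia4 (0.75), Bmx to Lix1l (0.70), Hey1 to Slc35f2 (0.67) and Gja5 to the chemokine Cx3cl1 (0.66). Sema3g had an r of 0.70 with the endothelial receptor Tek. Among the members themselves, the highest r was that of Gja4 with Ephb4 (0.76), and the arterial pair Gja4 and Gja5 had 0.09.

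Promoter sequences of the members whose level changed, and of Gja5 beside Gja4, are shown because the arterial genes among them did not move together. RefSeq sequences (GRCm38.p6, which is not the build of the counts) were held for 8 of 9 members. The 250 bases before the gene start were searched on both strands for 4 short motifs: ACGTG, the core bound by hypoxia-inducible factors, TGGGAA, the core bound by the Notch effector RBPJ, AACAAT, a core of SOX factors, and CACCC, a core of KLF factors. Each sequence runs 5′ to 3′ on the strand of the gene, with matches in capitals. In those shown, capitals occur in Gja5 and Ephb4 and mark CACCC or its reverse complement GGGTG, and overlapping matches were each counted.
Gkn3, chr6:87388936-87389185 (- strand): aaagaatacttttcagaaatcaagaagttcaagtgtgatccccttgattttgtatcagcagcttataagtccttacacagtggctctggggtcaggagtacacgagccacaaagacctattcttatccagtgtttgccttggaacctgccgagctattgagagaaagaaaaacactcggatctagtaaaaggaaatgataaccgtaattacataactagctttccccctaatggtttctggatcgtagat
Gja4, chr4:127314040-127314289 (- strand): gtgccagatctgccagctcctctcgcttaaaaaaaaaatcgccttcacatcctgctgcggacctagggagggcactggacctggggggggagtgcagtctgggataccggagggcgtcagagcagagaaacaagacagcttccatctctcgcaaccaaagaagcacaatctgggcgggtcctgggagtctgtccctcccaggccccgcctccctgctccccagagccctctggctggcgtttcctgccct
Gja5, chr3:97032152-97032401 (+ strand): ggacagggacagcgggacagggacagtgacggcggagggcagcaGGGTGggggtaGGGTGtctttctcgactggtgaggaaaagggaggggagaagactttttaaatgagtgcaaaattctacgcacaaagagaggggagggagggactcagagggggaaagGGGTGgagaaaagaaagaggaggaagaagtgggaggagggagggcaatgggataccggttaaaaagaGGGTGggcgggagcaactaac
Ephb4, chr5:137349859-137350108 (+ strand): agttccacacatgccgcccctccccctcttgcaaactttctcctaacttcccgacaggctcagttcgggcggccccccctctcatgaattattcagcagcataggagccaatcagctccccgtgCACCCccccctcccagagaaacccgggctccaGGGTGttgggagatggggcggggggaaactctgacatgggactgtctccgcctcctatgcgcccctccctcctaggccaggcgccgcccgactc

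ACGTG was in 0 of the 8 promoters (16.6% of 32851 mouse promoters of the same length), AACAAT in 0 (9.42%), TGGGAA in 1, that of Bmx (21.6%), and CACCC in 5 (52.0%). The promoters of Gkn3 and Gja4 held no match to any of the 4 motifs, while that of Gja5 held 4 matches to CACCC and that of Ephb4 held 2. A match is no site of binding, and no match means that these letters are not in this window. The share of G and C bases was 40.8% for Gkn3, 61.2% for Gja4, 56.4% for Gja5 and 64.0% for Ephb4. Hey1 was not among the promoters at hand.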

How the data were processed

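Retinal RNA of 27 mice had been sequenced as single reads from an unstranded kit. The authors aligned reads with STAR 2.7.8a to the mouse genome (Gencode M28), counted them with featureCounts 2.0.1 and deposited a signal of normalized reads, that is, gene counts divided by a DESeq2 1.34 size factor of each mouse. The deposited table also holds the authors' means (signal), log2 fold changes and adjusted p-values, of which none was used. All values (100%) were whole multiples of 1 read of their mouse (tolerance 0.001 reads), and the reads so recovered summed to 17029536 to 33593428 per mouse. No 2 mice of a group were copies of each other (chi-square per degree of freedom at least 9.39).

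A linear model for the 4 groups was fitted to log2(normalized reads + 1) with limma 3.58.1 (R 4.3.3; variances moderated with a mean trend), without nOIR p14 mouse S4, for genes with a mean of at least 1, and p-values were adjusted by Benjamini-Hochberg over 27137 genes. Fold changes are on this scale, which understates changes of low genes. Calls had an adjusted p under 0.05, without the fold threshold of the study. Genes named beside the members were at most the 4 of each list with the smallest adjusted p in that comparison and a mean of at least 10, and the 3 genes with the highest r. Vtn and Mylk, the most abundant of their lists, lie outside this rule and were named after their values were seen. Alternatives were pseudocounts of 0.1 and 5, filters, scalings, covariates, the recovered reads in DESeq2 1.42.0 and in the quasi-likelihood test of edgeR 4.0.16, stricter thresholds and leaving out each mouse. The length index covariate and the removal of S1 and S8 were chosen after seeing the data. Scripts were tested on simulated data. Summaries used Python 3.11.15. Some genes near the members or in the lists are not reported here. Members and lists were chosen with earlier results of these data known.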

Additional observations from a re-analysis of the deposited data

Results flagged for a closer look

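In a group of 4 to 10 mice, a value far from the nearest other mouse was looked for in 35 groups of member values on the scale of log2(normalized reads + 1). It was found for 2, and chance gives about 1 in 20 groups. Efnb2 in nOIR p14 mouse S6 had 248 normalized reads, below the other 5 mice of its group. Bmx in OIR p14 mouse S2 had 2.15 normalized reads, which is 2 reads, below the other 5 mice of its group. On normalized reads themselves neither value stood apart, and Bmx in nOIR p17 mouse S5 (94.6 normalized reads, the highest of its group) did. The OIR effect on Gja4 differed between ages, exceeding at p17 that at p14 by 1.38 ± 0.22 log2 units (limma, difference of effects, adjusted p = 0.000272), and all 8 OIR p17 mice were higher than all nOIR p17 mice, while OIR p14 mice overlapped with their controls.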

How the results depend on the processing

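At p14, 2 members were called, and with the fold threshold of the study (log2 fold change above 2 or below -2) 1, Gkn3. At p17, 3 were called, and 0 with the pan-endothelial covariate, as between OIR p17 and OIR p14 (0 instead of 3) and for the difference of effects (0 instead of 1). With the fold threshold, p17 gave 2 (Gkn3 and Gja4, without Ephb4), OIR p17 against OIR p14 gave 1 and the difference of effects gave 0. The difference of effects gave 2 with edgeR (Gkn3 and Gja4) and 3 with DESeq2 (Gkn3, Gja4 and Sema3g), and the cause was not tested. The share of all tested genes called by these tools is not given here, so these counts cannot be read against it. With the pan-endothelial covariate, log2 fold changes turned sign for Gja4 (-0.0162) and Ephb4 (-0.0944) between OIR p17 and OIR p14, and at p17 for Ephb4 (-0.21), Aplnr (-0.38), Gja1 (-1.61), Heyl (-0.0685), Tec (-0.12) and Cryab (-0.35). Among members not called in the comparison without it, Bmx turned sign at p17 (-2.22 ± 1.45) and between OIR ages (-1.12 ± 1.37), Gja5 between OIR ages (-1.33 ± 0.62), Nr2f2 at p17 (-0.0465 ± 0.49), Bmx between the control ages (0.0098 ± 0.51), and Bmx (-1.13), Ephb4 (-0.495) and Hey1 (-0.0552) for the difference of effects. The covariate did not overlap between OIR p17 and the other mice, so SEs were large. Leaving out each mouse gave 2 to 3 members at p14, 3 to 4 at p17, 0 between the control ages, 3 to 4 between OIR ages and 1 to 2 for the difference of effects (2 without OIR p14 mouse S4, with Ephb4). Mice of the same number did not deviate together across OIR and nOIR (r from -0.30 to 0.32 at p14 and -0.21 to 0.30 at p17) or across OIR ages (-0.35 to -0.02). Between the control ages, 4 of 5 pairs had an r over 0.1 (-0.17 to 0.50). As not every pair did, mice were taken as unpaired. With a replicate block the counts were 2 at p14, 3 at p17, 0 between the control ages, 3 between OIR ages and 1 for the difference of effects. The difference of effects could not be fitted on the compared groups alone, as it needs all 4. Nr2f2 at p14 was called under 8 alternatives, with the smallest adjusted p by DESeq2 (0.0354). Depth limits Gkn3 and Bmx most, with 50 reads of Gkn3 over 8 OIR p17 mice. Litter and sex were not modelled.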
